A study of Homo sapiens with 16 samples.

Results

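POSTN, CALB2, ROBO2, FMN2, PLSCR5, FREM2, SLITRK1 and MDGA2 are 8 genes of 23340 that were near absent in both clones of a human bile duct cancer line carrying a short hairpin RNA (shRNA) against PRH, and clearly present in both clones carrying a control shRNA. They were chosen by their normalised counts in experiment 1, as lowest in both PRH shRNA clones against both control clones, so their levels in those 4 libraries are given as a description with no test. All 8 were found by symbol in each of the 3 deposited tables. The libraries that the choice did not use, 12 of 16, were tested.

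RNA was sequenced from CCLP1, an established line of human cholangiocarcinoma, a cancer of the bile duct epithelium. In experiment 1, clones of CCLP1 cells carried an shRNA against HHEX, the gene of PRH, or a non-targeting shRNA (2 clones each, each clone 1 library). In experiment 2, CCLP1 cells were infected with an adenovirus carrying myc-tagged PRH or with an empty adenovirus (2 infections each), the column of the latter being named after a GFP virus. In experiment 3, CCLP1 lines with an shRNA against NOTCH3 or a non-targeting shRNA were infected with the myc-PRH or the empty adenovirus (2 infections for each of the 4 combinations). Every library thus comes from the same parental line, a clone stands for the descent of a single cell, and the infections of experiment 3 repeat the virus and not the making of the shRNA line. The 2 libraries of a group are called A and B in experiments 2 and 3, as names only.

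PRH is a homeodomain transcription factor that can repress or activate genes, and NOTCH3 is a cell surface receptor whose cleaved inner part acts in the nucleus with the DNA-binding protein RBPJ. The 8 genes belong to no single pathway. POSTN (periostin) and FREM2 act in the extracellular matrix, POSTN as a secreted protein of stromal matrix and FREM2 as a member of the Fraser complex of basement membranes. ROBO2 is a receptor for SLIT guidance ligands, while SLITRK1 and MDGA2 are neuronal surface proteins with roles at synapses. FMN2 nucleates actin filaments, CALB2 encodes calretinin, a calcium buffer of neurons and mesothelium, and PLSCR5 belongs to the phospholipid scramblase family.

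Promoter windows of 300 bases, 250 before and 50 after the transcript start, were found in RefSeq (GRCh38.p14) for 7 of the 8 genes, as 10 windows. They were searched on both strands for ATTAAA, part of a site that PRH binds, and for TGGGAA, the core of the RBPJ site. ATTAAA occurred in 2 of the 10 windows, those of POSTN and FMN2, and in 12.2% of all 35116 windows. TGGGAA occurred in 0 of the 10 and in 24.0% of all. The 250 bases before the start are shown for both genes that hold a match, which is in capitals, read 5′ to 3′ on the strand of the gene: POSTN at chr13:37598769-37599018 on the minus strand and FMN2 at chr1:240091633-240091882 on the plus strand. These matches are a description of the letters in the windows and not of binding.
POSTN: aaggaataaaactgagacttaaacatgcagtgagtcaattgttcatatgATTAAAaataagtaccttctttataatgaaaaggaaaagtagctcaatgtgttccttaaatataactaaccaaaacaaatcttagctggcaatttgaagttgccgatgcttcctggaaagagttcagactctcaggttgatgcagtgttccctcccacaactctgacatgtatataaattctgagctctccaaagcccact
FMN2: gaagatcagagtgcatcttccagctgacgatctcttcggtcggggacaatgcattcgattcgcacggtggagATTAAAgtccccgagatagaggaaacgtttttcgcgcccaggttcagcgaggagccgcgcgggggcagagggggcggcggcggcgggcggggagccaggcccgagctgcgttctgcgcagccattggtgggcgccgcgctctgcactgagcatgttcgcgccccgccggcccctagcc

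Libraries held 20795552 to 69899040 reads in genes, with 15388 to 17169 genes detected. Pairs of values for clones are given for clone 1 and then clone 2, and for other groups for library A and then B. HHEX, the target of the PRH shRNA, stood at 314 and 326 normalised counts in the PRH shRNA clones and at 580 and 554 in the control clones, lower but still present. With the PRH virus HHEX rose in experiment 2 by 7.87 on the log2 scale (adjusted p = 4.40e-05, limma) and in the control shRNA cells of experiment 3 by 8.70 (adjusted p = 1.75e-07, limma). Under the empty virus NOTCH3 was not called lower in cells labelled NOTCH3 shRNA, which had 836 ± 257 normalised counts where control shRNA cells had 775 ± 89.95 (SD, n = 2), a log2 fold change of 0.08 (adjusted p = 0.798, limma). Under the PRH virus it was called lower, with 923 ± 229.5 where control shRNA cells had 2392 ± 137 (SD, n = 2), a log2 fold change of -1.39 (adjusted p = 0.00118, limma). These libraries are therefore named by their label throughout. Across 14474 genes, which are not independent replicates, PRH shRNA clone 2 correlated at a Pearson r of 0.954 to 0.969 with the libraries labelled NOTCH3 shRNA and at 0.925 with PRH shRNA clone 1, while PRH shRNA clone 1 correlated at 0.977 with control clone 1. The control clones correlated at 0.948 with each other, and PRH shRNA clone 2 at 0.940 with control clone 2. PRH shRNA clone 2 thus stands apart from the clone it is grouped with, and control clone 1 was closer to PRH shRNA clone 1 than to control clone 2. Values are therefore given for each clone.

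In the PRH shRNA clones 4 of the 8 genes had 0 reads in both libraries and the other 4 had at most 29 reads in a library, against 142 to 21937 reads in a control clone. POSTN stood at 1.45 and 0 normalised counts in the PRH shRNA clones and at 4435 and 3536 in the control clones, where a normalised count is a read count divided by the size factor of its library. CALB2 stood at 10.1 and 28.7 against 11355 and 20933, in the same order. The choice asked for a low level in both PRH shRNA clones, so its presence in the clone that stands apart is built in. ROBO2 stood at 2.89 and 0 against 2202 and 2987. FMN2 stood at 4.34 and 1.98 against 7154 and 2019. The control clones were less alike for FMN2, clone 1 being 3.54-fold above clone 2, than for POSTN, where clone 1 was 1.25-fold above clone 2.

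PLSCR5, FREM2, SLITRK1 and MDGA2 had no read in either PRH shRNA clone. In the control clones PLSCR5 stood at 257 and 225 normalised counts, FREM2 at 242 and 916, SLITRK1 at 137 and 321, and MDGA2 at 131 and 136. A count of 0 allows up to 3 counts per library, and against that floor the control mean was at least 65.9-fold higher for PLSCR5, at least 158-fold for FREM2, at least 62.6-fold for SLITRK1 and at least 36.4-fold for MDGA2. The ratio of the means of the control and PRH shRNA clones was 5510 for POSTN, 1793 for ROBO2, 1451 for FMN2 and 831 for CALB2, all of which rest on few reads in the PRH shRNA clones. In bulk RNA, fewer cells that hold a transcript and less of it per cell cannot be told apart.

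**Figure D1:**
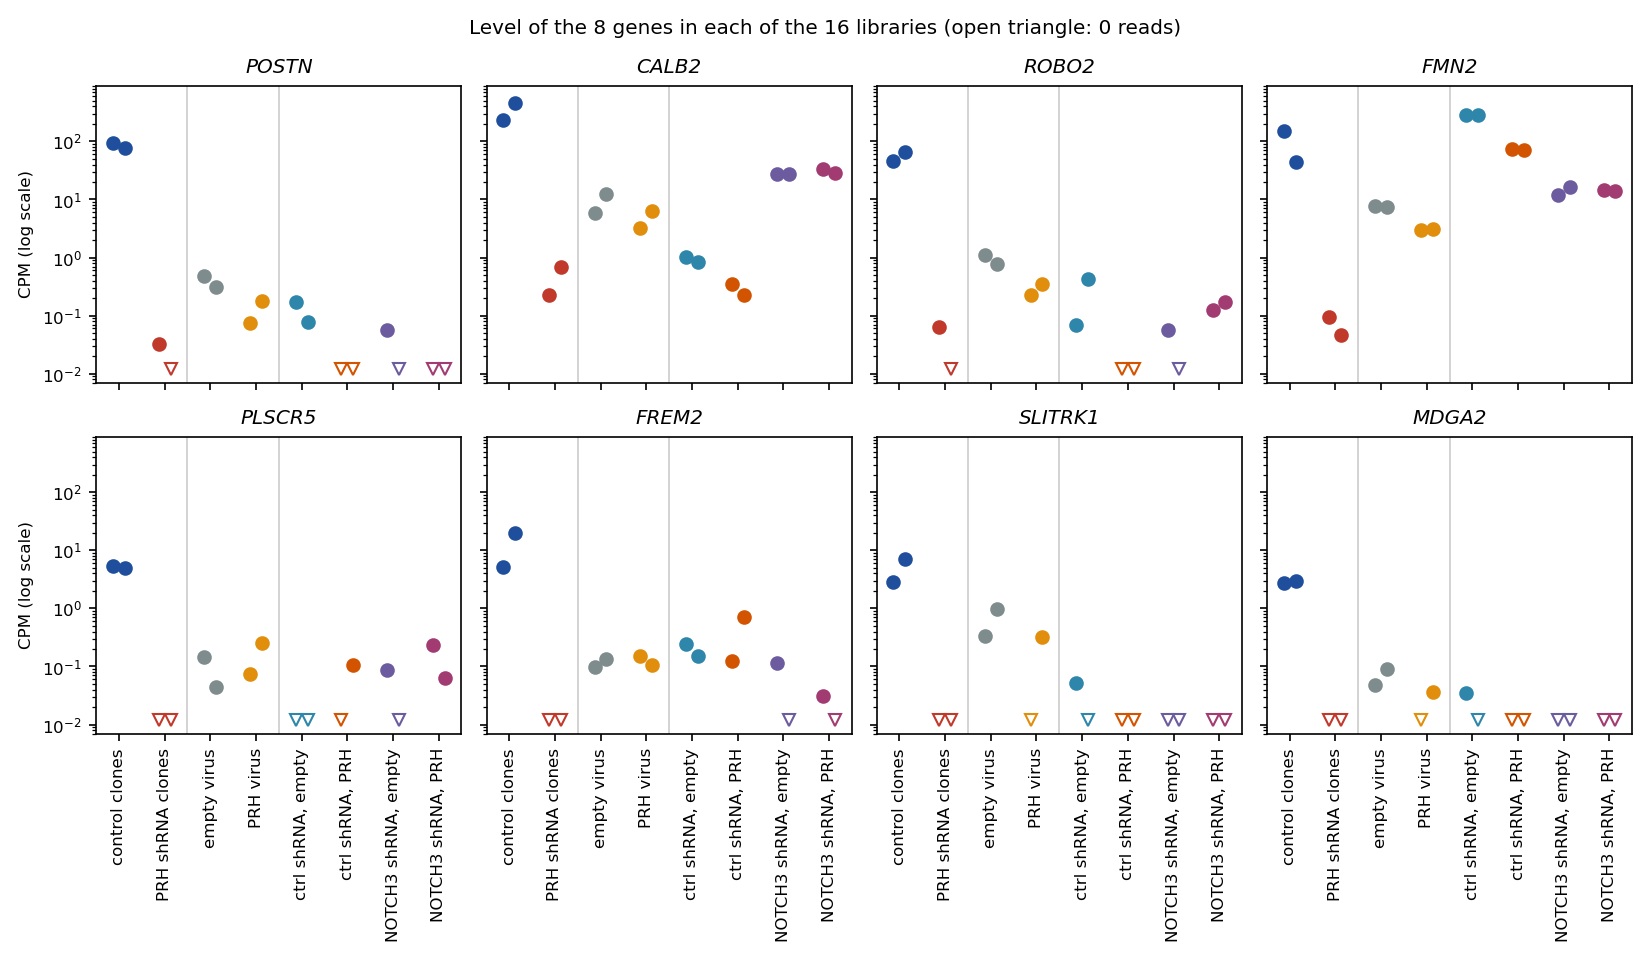
Level of each of the 8 genes, in CPM on a log scale, in all 16 libraries by group, with 1 point per library, open triangles for 0 reads and lines between the 3 experiments. POSTN, ROBO2, PLSCR5 and MDGA2 are high in the 2 control shRNA clones alone, CALB2 is intermediate in the libraries labelled NOTCH3 shRNA, and FMN2 is highest in control shRNA cells with the empty virus.

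To place the choice, genes were counted whose higher PRH shRNA clone was at least 10-fold below the lower control clone on the scale of value + 1. All 8 genes met this, as the choice fixes, among 68 of 14511 genes (0.469%), and 62 genes (0.427%) met the mirror rule upward. Ranked by that ratio among 12103 genes with a control mean of at least 50, POSTN, ROBO2, CALB2, FMN2, FREM2 and PLSCR5 held ranks 1, 2, 4, 5, 6 and 7, and SLITRK1 and MDGA2 ranks 9 and 10. CDH12 at rank 3 and TMEFF2 at rank 8 lay among them without being chosen. Just inside the choice MDGA2 was 132-fold lower on that scale, and just outside HEY2 was 101-fold and EYA4 100-fold lower.

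**Figure D2:**
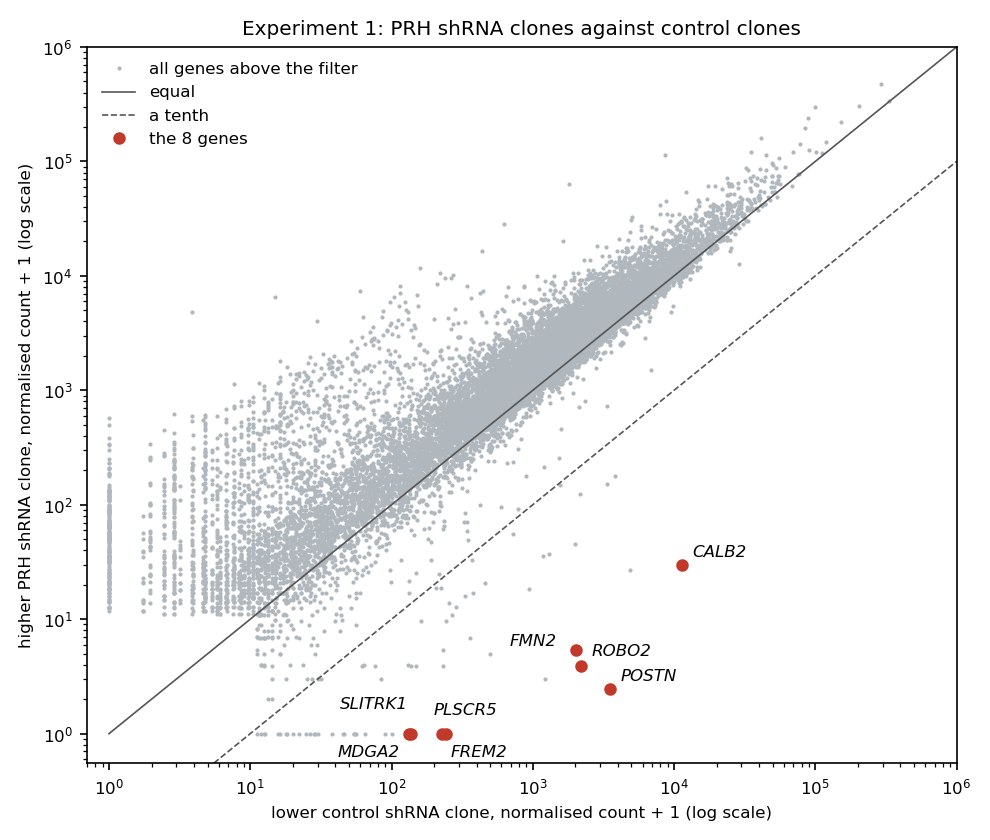
The higher PRH shRNA clone (vertical) against the lower control clone (horizontal) for each gene tested in experiment 1, as normalised count + 1 on log scales, with lines for equal values and for a 10-fold lower level. The 8 genes, in red, lie among the 68 genes below the 10-fold line, and setting the higher clone against the lower one puts most other genes above the line of equal values.

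Most libraries that carried no PRH shRNA also had low levels of these genes relative to the control clones of experiment 1. Against the PRH shRNA clones their place differed by gene. The choice used the level of these clones, so these places are a description. Where both clones were at 0, for PLSCR5, FREM2, SLITRK1 and MDGA2, any read put a library above them. Of the 12 libraries of experiments 2 and 3, all 12 lay above the higher PRH shRNA clone for FMN2, 10 for CALB2 and for FREM2, 8 for ROBO2 and for PLSCR5, 7 for POSTN, and 4 for SLITRK1 and for MDGA2. For all but FMN2 and CALB2 these libraries held at most 41 reads of the gene. SLITRK1 and MDGA2 were at 0 in 8 of the 12 libraries, POSTN in 5, PLSCR5 in 4, ROBO2 in 3 and FREM2 in 2. Each of these genes was also at 0 in a PRH shRNA clone. Levels across experiments are given in CPM, reads scaled to the total of their library, and since the tables were scaled separately they are not tested. POSTN reached 93.0 and 77.0 CPM in the control clones and at most 0.481 in the 12 libraries of experiments 2 and 3. ROBO2 was at 46.2 in the lower control clone and at most 1.11 elsewhere, PLSCR5 at 4.91 and at most 0.250, and MDGA2 at 2.75 and at most 0.0892. These 4 genes were thus at least 10-fold below the lower control clone in every one of the 12 libraries. SLITRK1 was at 2.87 in the lower control clone and at most 0.981 elsewhere, and FREM2 at 5.08 and at most 0.724.

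CALB2 and FMN2 differed from that pattern. CALB2 was at 238 CPM in the lower control clone, between 27.1 and 34.0 in the 4 libraries labelled NOTCH3 shRNA and at most 12.4 in the other 8 libraries. FMN2 was at 44.0 in the lower control clone, and 4 of the 12 libraries, all of control shRNA cells in experiment 3, were above it, at 71.9 to 285. The PRH shRNA clones were the lowest of all 16 libraries for FMN2, at 0.0964 and 0.0470, below the lowest other library at 3.01. The choice used the values of the PRH shRNA clones, so this place is partly built in.

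HHEX stood at 12.2 and 12.1 CPM in the control clones and at 6.97 and 7.73 in the PRH shRNA clones. With the empty virus, HHEX was at 12.6 and 17.0 in experiment 2 and at 10.3 and 12.1 in the control shRNA cells of experiment 3, at or near its level in the control clones. In cells labelled NOTCH3 shRNA, HHEX under the empty virus was at 3.48 and 3.23, called lower than in control shRNA cells (log2 fold change -1.74, adjusted p = 0.000126, limma). Across the 4 libraries with the empty virus and no NOTCH3 shRNA, 6 of the 8 genes (75%) were at least 10-fold below the lower control clone in all 4. In the 2 of experiment 3 this held for 7 genes (87.5%), all but FMN2, and in the 2 of experiment 2 for 6, all but FMN2 and SLITRK1. Of all 68 genes that met the 10-fold rule, 32 (47.1%) were at least 10-fold below in all 4 of those libraries. The 68 include the 8 genes, and the choice of the 8 used the level of the lower control clone. The difference between these shares is therefore partly built in and is a description. An effect of the PRH shRNA and a state of the control clones cannot be told apart from these values.

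No gene that could be tested was called higher with the PRH virus. FMN2 fell with it in experiment 2 and in the control shRNA cells of experiment 3. A gene entered the test, limma on log2(value + 1), if 2 or more libraries of its table reached 10 normalised counts, and in experiment 2 this held for 3 of the 8: FMN2, CALB2 and ROBO2. FMN2 stood at 71.8 and 76.4 normalised counts with the PRH virus and at 191 and 186 with the empty virus. The groups did not overlap, and FMN2 fell by 1.34 on the log2 scale (SE 0.21, adjusted p = 0.00993, limma). Of the 3 genes tested 0 were called higher and 1 lower, where 15.6% of all 13263 genes tested were called, 9.9% higher and 5.73% lower. With 3 genes, these counts cannot be told apart from those shares.

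CALB2 stood at 76.2 and 155 normalised counts with the PRH virus and at 140 and 309 with the empty virus, and the groups overlapped (log2 fold change -0.93, SE 0.45, adjusted p = 0.215, limma). Without PRH virus library B, CALB2 was called lower at -1.44 (adjusted p = 0.00188, limma), a fit that takes the spread of the lone PRH virus library from the empty virus pair. It was not called when any other library was left out, at -1.50 without empty virus library A (adjusted p = 0.0653, limma), -0.37 without empty virus library B (adjusted p = 0.610, limma) and -0.43 without PRH virus library A (adjusted p = 0.542, limma). ROBO2 stood at 5.32 and 8.68 against 26.9 and 18.8. Its groups did not overlap, with lower values under the PRH virus, and the difference did not pass (log2 fold change -1.59, SE 0.50, adjusted p = 0.0766, limma).

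The other 5 genes were too low for the test in experiment 2. POSTN had 2 and 5 reads with the PRH virus and 10 and 7 with the empty virus, and SLITRK1 had 0 and 9 against 7 and 22. PLSCR5 had 2 and 7 against 3 and 1, FREM2 4 and 3 against 2 and 3, and MDGA2 0 and 1 against 1 and 2. None of the 5 came near its level in the control clones of experiment 1, while HHEX stood at 4278 and 2874 CPM with the PRH virus.

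In the control shRNA cells of experiment 3 FMN2 and CALB2 fell with the PRH virus. FMN2 stood at 4183 and 3936 normalised counts with the PRH virus and at 16999 and 16762 with the empty virus. The libraries of each group lay close together, and FMN2 fell by 2.06 on the log2 scale (SE 0.14, adjusted p = 3.13e-05, limma). CALB2 stood at 19.6 and 12.6 against 61.5 and 48.7, with no overlap, and fell by 1.74 (SE 0.32, adjusted p = 0.00410, limma). With a fit of the 4 libraries compared alone, the CALB2 value was the same and no longer passed (adjusted p = 0.0528, limma).

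FREM2, the third gene that passed the filter in experiment 3, stood at 6.81 and 39.6 against 14.3 and 9.05 normalised counts, overlapping groups (log2 fold change 0.52, SE 1.31, adjusted p = 0.827, limma). Of the 3 genes tested in control shRNA cells 0 were called higher and 2 lower, where 15.2% of all 15836 genes were called higher and 11.8% lower, 27% in all. Again 3 genes are too few to tell these counts apart from those shares. The remaining 5 genes were below the filter: POSTN had 0 and 0 reads with the PRH virus and 10 and 4 with the empty virus, and ROBO2 0 and 0 against 4 and 22. PLSCR5 had 0 and 6 reads against 0 and 0. SLITRK1 and MDGA2 had 0 reads with the PRH virus and 3 and 2, respectively, in library A of the empty virus. With no filter on low values, POSTN (log2 fold change -2.98, adjusted p = 0.0445, limma) and ROBO2 (-3.52, adjusted p = 0.0428, limma) were called lower too.

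**Figure D3:**
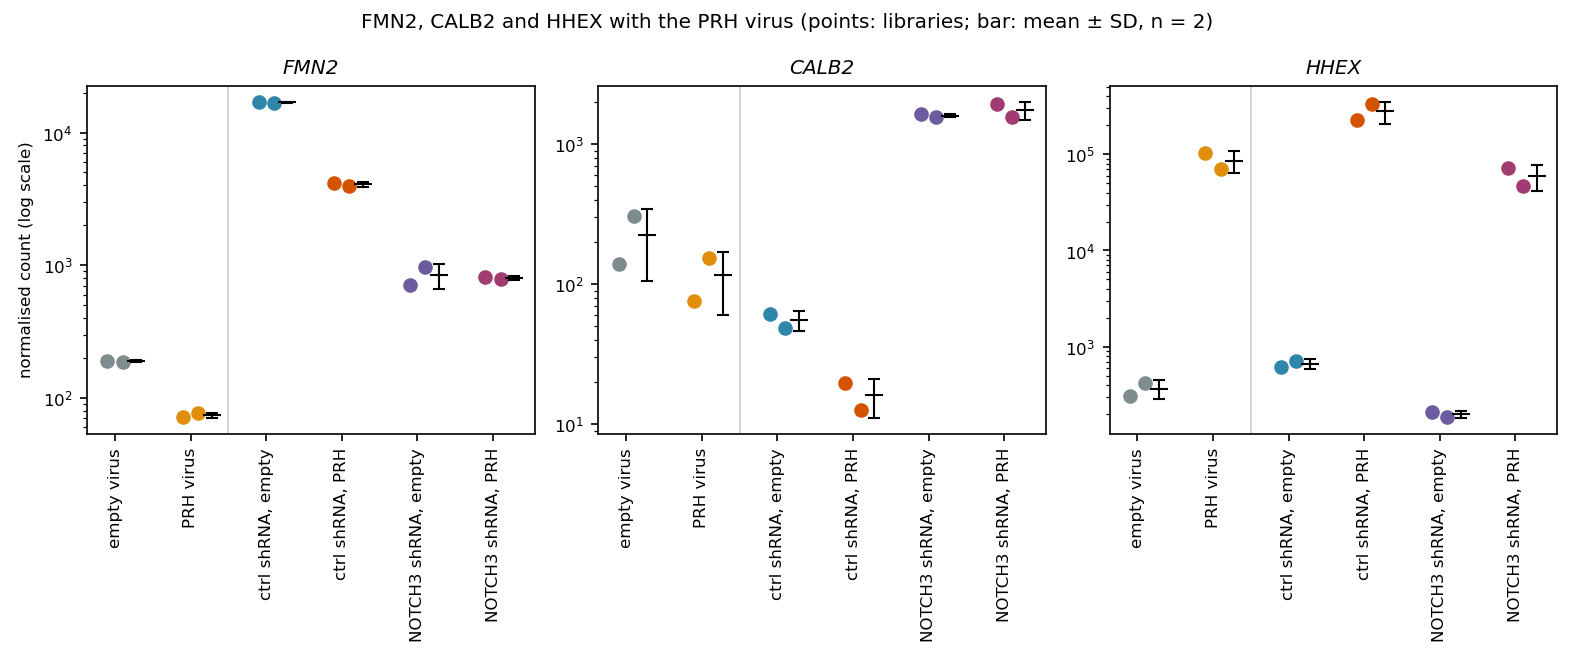
Normalised counts of FMN2, CALB2 and HHEX, on log scales with their own range, in experiment 2 (left of the line) and experiment 3, with 1 point per library and bars of mean ± SD (n = 2). FMN2 is lower with the PRH virus in experiment 2 and in control shRNA cells, CALB2 in control shRNA cells, and in cells labelled NOTCH3 shRNA the groups overlap for both, while HHEX is higher with the PRH virus throughout.

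In the cells labelled NOTCH3 shRNA none of the 3 genes tested was called with the PRH virus. FMN2 stood at 817 and 782 normalised counts with the PRH virus and at 712 and 962 with the empty virus, the latter spanning the former (log2 fold change -0.05, adjusted p = 0.898, limma). CALB2 stood at 1932 and 1560 against 1634 and 1568, also overlapping (log2 fold change 0.12, adjusted p = 0.898, limma). FREM2 stood at 1.74 and 0 against 6.88 and 0 (log2 fold change -0.76, adjusted p = 0.823, limma). The other 5 genes were below the filter, at 0 and 0 reads with the PRH virus and 4 and 0 with the empty virus for POSTN, 8 and 8 against 4 and 0 for ROBO2, and 15 and 3 against 6 and 0 for PLSCR5. SLITRK1 and MDGA2 had no read in any of these 4 libraries. In these cells 2.21% of all genes tested were called, 1.9% higher and 0.309% lower, and 3 genes are too few to tell apart from these shares. HHEX reached 841 to 1266 CPM with the virus against 4109 to 6039 in control shRNA cells.

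The response to the PRH virus differed between the shRNA lines for FMN2 and CALB2, by the interaction term of the same fit. For FMN2 the response was higher by 2.01 on the log2 scale in the cells labelled NOTCH3 shRNA than in control shRNA cells (SE 0.20, adjusted p = 0.000692, limma). For CALB2 it was higher by 1.85 (SE 0.45, adjusted p = 0.0370, limma), and for FREM2 the difference of -1.28 did not pass (adjusted p = 0.739, limma). The interaction was called for 8.39% of all genes tested, 3.48% higher and 4.91% lower. The CALB2 interaction lost its call when any 1 of 7 of the 8 libraries was left out, all but control shRNA + PRH virus library A (adjusted p = 0.0504 to 0.137, limma).

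FMN2 and CALB2 lay on opposite sides of the comparison between the shRNA lines. With the empty virus FMN2 was lower by 4.35 on the log2 scale in the cells labelled NOTCH3 shRNA, a log2 fold change of -4.35 (adjusted p = 5.61e-08, limma), and CALB2 was higher by 4.85 (adjusted p = 2.61e-06, limma). With the PRH virus the log2 fold changes were -2.34 for FMN2 (adjusted p = 2.44e-06, limma) and 6.70 for CALB2 (adjusted p = 7.50e-07, limma). FREM2 did not pass, at -2.15 with the empty virus (adjusted p = 0.200, limma) and -3.43 with the PRH virus (adjusted p = 0.0563, limma). The latter was called without NOTCH3 shRNA + empty virus library A (adjusted p = 0.0337, limma) or library B (adjusted p = 0.0305, limma). Of the 3 genes tested, 1 was called higher and 1 lower with either virus. Over all genes tested 51.9% were called with the empty virus, 28.9% higher and 23.1% lower, and 47.2% with the PRH virus, 26.1% higher and 21.1% lower, so a call was common in these comparisons. The shRNA lines share no replicate of their making, and an effect of the shRNA cannot be told apart from a difference between the lines.

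The spread within each pair of libraries was counted over all genes tested. Between PRH shRNA clones 1 and 2, 284 of 14511 genes (1.96%) were at least 10-fold apart on the scale of value + 1, and between the control clones 94 genes (0.648%). The choice of the 8 genes by these libraries fixes their place in that count. In experiment 2 the same count was 0 and 10 genes of 13263 for the PRH and the empty virus. In experiment 3, of 15836 genes, it was 447 (2.82%) for NOTCH3 shRNA with the PRH virus, 365 (2.30%) for NOTCH3 shRNA with the empty virus, 229 (1.45%) for control shRNA with the PRH virus and 240 (1.52%) for control shRNA with the empty virus.

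The nearest measured neighbours of 7 of the 8 genes, all but FMN2, were mostly at similar levels in both kinds of clone. Of 62 other genes within 5 measured places on either side of the 7, by the gene order of RefSeq, 1 was at least 10-fold lower in both PRH shRNA clones and 0 higher. By the same rule 0.469% of all genes tested were lower and 0.427% higher, and 62 genes are too few to tell apart from these shares. The log2 differences of the 62 ran from -4.22 to 3.76, with a median of -0.12, against a median of -0.07 over all genes tested. The 1 gene was HYDIN, 2 places from CALB2, at 0 in both PRH shRNA clones and at 23.4 and 11.5 in the control clones, a gene whose near-identical copy HYDIN2 makes its counts uncertain. TRPC4, a calcium channel gene next to POSTN, stood at 0 and 0.99 normalised counts in the PRH shRNA clones and at 12.4 and 50.6 in the control clones, short of the 10-fold rule. UFM1, between TRPC4 and FREM2, stood at 6740 and 1972 against 7399 and 2495, following the clone number and not the shRNA. POSTN, FREM2 and SLITRK1 lie on chromosome 13, where 4 of 249 genes tested (1.61%) met the 10-fold rule, 3 of them these genes, against 0.469% of all genes tested. The choice put these 3 into the count, and 1 other gene of the chromosome met the rule, so the share is no result about the chromosome. ROBO1, the neighbour of ROBO2 and its paralog, had a mean of 3497 against 7337, and SLITRK6, the measured neighbour of SLITRK1, 739 against 932. PLSCR1, beside PLSCR5, had a mean of 2490.5 against 4435.

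**Figure D4:**
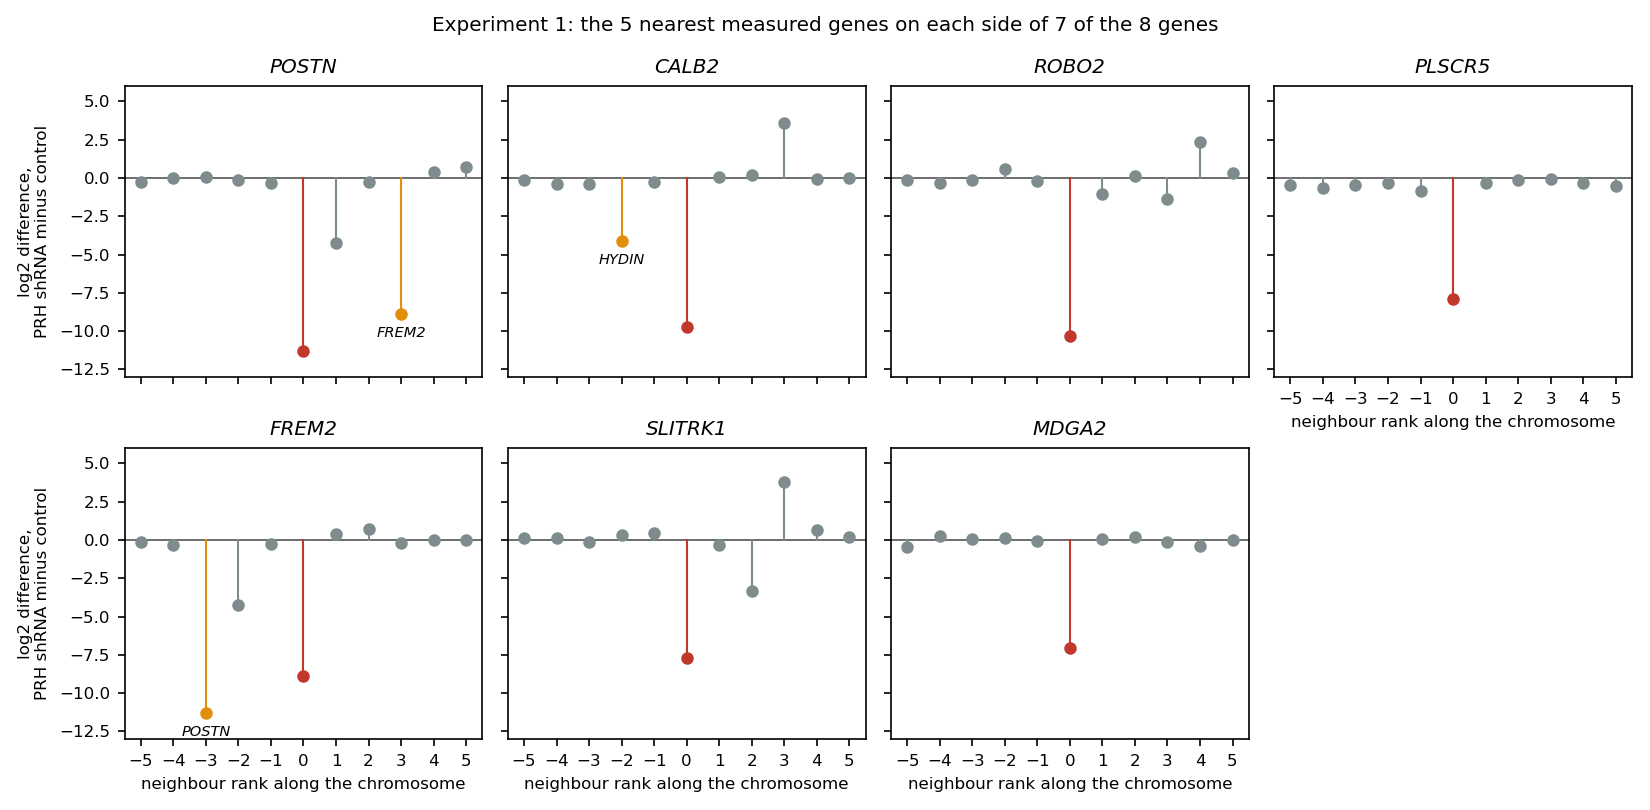
Log2 difference of PRH shRNA clones against control clones (value + 1, n = 2 each) for 7 of the 8 genes, in red at place 0, and the 5 measured genes on each side in the gene order, with neighbours that met the 10-fold rule in orange. The 7 genes lie between -11.31 and -7.07, and of the neighbours that are not among the 8 TRPC4 is the lowest at -4.22, with a median of -0.12.

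Relatives and partners of the 8 genes were read from lists of their families. In the PRH shRNA clones 0 relatives in any of the 8 lists were at least 10-fold lower, and 1, VSNL1 among the EF-hand calcium sensors, was at least 10-fold higher. By the same rule 0.469% of all genes tested were lower and 0.427% higher, and the lists are too short for these counts to be told apart from those shares. VSNL1 stood at 145 and 358 normalised counts in the PRH shRNA clones and at 7.32 and 5.73 in the control clones. Of the 12 measured genes of SLIT and ROBO guidance, the median log2 difference was -0.24, and of 14 formins and SPIRE actin nucleators 0.02, against -0.07 over all genes. The Fraser complex genes had a median of 4.09 over 4 measured genes. FRAS1, the partner of FREM2 in that complex, was at 380 and 1809 in the PRH shRNA clones and at 36.6 and 50.6 in the control clones, the opposite side from FREM2.

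With the PRH virus in control shRNA cells, 7 of 14 formins and SPIRE genes were called, 4 higher and 3 lower, against 27% of all genes. FMNL2, a formin of the leading edge, fell by 1.22 on the log2 scale (adjusted p = 8.01e-05, limma). Of 11 genes of SLIT and ROBO guidance 2 were called higher and 3 lower. Of 9 SLITRK and leucine-rich synaptic organiser genes 4 were called higher and 1 lower. The 1 was SLITRK6, a synaptic membrane protein, at a log2 fold change of -2.52 (adjusted p = 0.000159, limma). SLITRK6 was also called lower in experiment 2, at -1.90 (adjusted p = 0.00708, limma), the 1 lower beside 4 called higher of 6 genes of that list tested there. Over all genes tested in experiment 2, 9.9% were called higher and 5.73% lower.

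Among 6 phospholipid scramblase genes 1 was called higher and 2 lower in control shRNA cells, where 15.2% of all genes were called higher and 11.8% lower. PLSCR4, a paralog of PLSCR5, was at 235 and 384 normalised counts with the PRH virus and 3365 and 2510 with the empty virus, without overlap, a log2 fold change of -3.27 (adjusted p = 5.91e-05, limma). Of 16 periostin relatives and partners 3 were called higher and 3 lower, with a median of -0.52. Of 4 EF-hand genes 2 were called higher and 1 lower, and of 5 genes of the MDGA and neuroligin list 1 was called higher and 0 lower. Of the 4 Fraser complex genes 0 were called higher and 1 lower, FRAS1 at -2.84 (adjusted p = 0.00260, limma).

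Between the shRNA lines with the empty virus, where 51.9% of all genes were called, calls among the relatives went both ways. In the Fraser complex list 3 of the 4 genes measured were called higher in the cells labelled NOTCH3 shRNA, FRAS1 by 10.14, NPNT by 10.05 and VWA2 by 8.19 on the log2 scale (adjusted p = 4.12e-07, 1.28e-05 and 2.64e-05, limma). Of the periostin list 8 were called higher and 5 lower of 16, of the formins and SPIRE genes 5 and 5 of 14, and of SLIT and ROBO guidance 3 and 6 of 11. Of the SLITRK list 3 were called higher and 3 lower of 9, of the MDGA list 2 and 1 of 5, of the EF-hand genes 2 and 1 of 4, and of the scramblases 0 and 2 of 6. FN1, the matrix protein fibronectin, had a log2 fold change of -2.89 (adjusted p = 3.76e-07, limma), COL1A2, a fibrillar collagen chain, of -2.59 (adjusted p = 7.49e-07, limma) and TNC, tenascin, of 8.96 (adjusted p = 6.21e-06, limma). ROBO1 was lower at -1.81 (adjusted p = 3.11e-05, limma), and NRXN3, a neurexin, higher at 6.68 (adjusted p = 4.40e-06, limma).

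CALB2 and POSTN are also markers of mesothelium and of fibroblasts, and marker lists without them were summed for each library. The 10 mesothelial markers summed to 5.78 to 11.95 CPM in the control clones and to 7.87 to 19.7 in the PRH shRNA clones, with PDPN at 0 in all 4 and UPK1B, ITLN1 and KRT5 at 0 in both control clones. The 12 fibroblast markers summed to 1131 to 2190 in the control clones and 1038 to 1059 in the PRH shRNA clones, with PDGFRA at 0 in all 4. Of the 12, DCN alone met the 10-fold rule, at 254 and 404 normalised counts in the control clones and at 0 and 12.9 in the PRH shRNA clones. The 12 neuronal markers summed to 1098 to 1380 in the control clones and 1159 to 1391 in the PRH shRNA clones, with STMN2, NEFM, ELAVL4 and DCX at 0 in all 4. Among them SNAP25 alone met the 10-fold rule, at 428 and 136 normalised counts in the control clones and at 2.89 and 1.98 in the PRH shRNA clones. Over all genes tested 0.469% met that rule. A sum follows its most abundant markers, so medians of the log2 difference, PRH shRNA clones against control clones, are also given. The median was -1.10 over 11 measured fibroblast markers, -0.72 over 6 neuronal and 0.22 over 3 mesothelial ones. Over all genes tested it was -0.07.

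The markers of bile duct epithelium, the labelled origin of CCLP1, differed between the groups. The 12 cholangiocyte and epithelial markers summed to 138 to 221 CPM in the control clones, 430 to 1590 in the PRH shRNA clones and 2961 to 3386 in the libraries labelled NOTCH3 shRNA. In the other 8 libraries they summed to 66.9 to 246, a range that overlaps the control clones, with KRT7, a bile duct keratin, and CFTR at 0 in both libraries of control shRNA cells with the empty virus. Between the PRH shRNA and the control clones the median log2 difference of the 12 epithelial markers was 3.73. Over all genes tested it was -0.07. Hepatocyte, leukocyte and endothelial markers summed to at most 21.9, 200 and 11.9 CPM in a library. The part of these markers in the levels of the 8 genes was not tested.

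Genes with the most similar pattern were ranked by Pearson r of log2(value + 1) over the 8 libraries of experiment 3, for the 3 genes that passed the filter there. The 8 libraries form 4 groups, so the values share those groups and are a description. For CALB2 the highest were TLE4, a transcriptional corepressor, and TSPAN8 and IL18, all with r = 0.997. For FMN2 they were COL1A2, PCDH15 and MAPKAP1, all with r = 0.996, and for FREM2 HMGN5, FNDC4 and TMEM14B with r = 0.961, 0.949 and 0.948. As many as 1183 genes had an r over 0.95 with CALB2 and 381 with FMN2, against 1 with FREM2. COL1A2 stood at 30300.3 ± 5728 normalised counts with the PRH virus and 70443 ± 5302 with the empty virus in control shRNA cells (SD, n = 2).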

How the data were processed

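RNA libraries were made with a TruSeq RNA kit, per the labels' protocols. The submitters' processing notes name Trim Galore, TopHat, featureCounts, DESeq2 and the hg19 build, and no version of these is given in the sources used here, nor is the handling of strand. The authors deposited a normalised signal per gene, which the values show to be reads divided by a size factor of each library. In every library 100% of values were whole multiples of 1 step within 1e-06, so reads could be recovered. Of 23368 lines, 28 with dates for symbols (0.208% to 0.276% of reads) were left out.

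Within each table limma 3.58.1 (R 4.3.3) was fitted to log2(value + 1), with group means and eBayes moderation along an intensity trend. Tested were genes that reached 10 normalised counts in 2 or more libraries, and a Benjamini-Hochberg adjusted p under 0.05 was called. The 8 libraries of experiment 3 shared 1 model. Fold changes on this scale understate changes of low genes. With 2 libraries per group the p-values rest on spread shared across genes and measure only spread between infections of 1 line; an exact permutation test could not reach the threshold. Alternatives included edgeR 4.0.16 and DESeq2 1.42.0 on recovered reads.

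The 8 genes and all lists were chosen with earlier results of these data known. Named were the 8 genes, the targeted genes, at most 3 called genes per list, the nearest neighbours and the most similar genes; UFM1, DCN, SNAP25, VSNL1, KRT7, CFTR and the SLITRK6 value of experiment 2 were named after their values were seen. Of 23340 symbols, 21964 matched RefSeq GRCh38.p14, used for gene order and promoters only. The neighbours of FMN2 are not reported here. Floors of 3 counts cover counting error only.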

Additional observations from a re-analysis of the deposited data

Results flagged for a closer look

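The response of FMN2 to the PRH virus differed between the shRNA lines of experiment 3, by 2.01 on the log2 scale (adjusted p = 0.000692, limma, interaction term). FMN2 was lower with the PRH virus in 2 of 2 libraries of control shRNA cells, while in cells labelled NOTCH3 shRNA the groups overlapped. The response of CALB2 differed by 1.85 (adjusted p = 0.0370, limma, interaction term), again with lower values in 2 of 2 libraries of control shRNA cells and overlapping groups in the other line. HHEX with the virus reached 841 to 1266 CPM in the line labelled NOTCH3 shRNA and 4109 to 6039 in the control line, and its part in these differences was not tested.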

How the results depend on the processing

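All 8 genes met the 10-fold rule in experiment 1 under the 9 alternatives, which the choice of the genes by these libraries fixes and which is no support. The count over all genes ran from 12 to 137 (68 as reported, 137 without PRH shRNA clone 2). With the PRH virus no alternative called any of the 8 genes higher. In control shRNA cells the count of 2 lower genes became 4 with no filter on low values and 1 with a fit of the 4 libraries compared; in experiment 2 leaving out a library gave 1 to 2. For the interaction, leaving out a library gave 1 to 2 and a fit with no intensity trend gave 1, the CALB2 call being the one lost. Some uncalled values changed sign. With the PRH virus in cells labelled NOTCH3 shRNA, leaving out a library gave CALB2 values of -0.037 (without NOTCH3 shRNA + PRH virus library A) to 0.27, FMN2 values of -0.27 to 0.17 (without NOTCH3 shRNA + empty virus library B) and FREM2 values of -2.25 to 0.73 (without NOTCH3 shRNA + empty virus library A). Rescaling to equal totals gave 0.022 for FMN2, and the FREM2 interaction ran from -2.77 to 0.21 (without NOTCH3 shRNA + empty virus library A). The causes were not tested. FMN2 kept its side of the threshold in every alternative of the other comparisons. Over all genes, alternatives called 758 to 2290 genes in experiment 2 (2073 as reported), 2291 to 5017 in control shRNA cells (4282), 1 to 1096 in cells labelled NOTCH3 shRNA (350) and 351 to 2212 for the interaction (1329). No paired analysis was possible because the columns of experiments 2 and 3 carry no replicate number and the contrast of experiment 1 was not tested. Depth limits POSTN, PLSCR5, SLITRK1 and MDGA2 outside the control clones, where a library held at most 22 reads of each.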
